A study of Mus musculus with 18 samples.

Results

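The nuclear genes of the mitochondrial respiratory chain were followed in sorted bone marrow progenitors of lupus-prone and control mice. They were all protein-coding genes, measured in both the LSK and the CMP table, whose symbol names a subunit of complex I (Ndufa, Ndufb, Ndufc, Ndufs, Ndufv), complex II (Sdha to Sdhd), complex III (Uqcr), complex IV (Cox4 to Cox8) or ATP synthase (Atp5), without assembly factors and without Cox6a2. There were 80 such genes, out of 19780 genes in the LSK table and 18428 in the CMP table: 36 of complex I, 4 of complex II, 8 of complex III, 15 of complex IV, where Ndufa4 was placed as a subunit of cytochrome c oxidase, and 17 of complex V.

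LSK (Lin-Sca-1+c-Kit+ cells, the fraction that holds the haematopoietic stem cells and the earliest progenitors) were sequenced in 12 samples and CMPs (common myeloid progenitors) in 6 samples, with 3 samples per group. All mice were female. Pre-diseased NZB/W F1 mice (F1-P) and young C57BL/6 mice (B6-Y) were 12 weeks old, and NZB/W F1 mice with overt lupus (F1-L, chosen for proteinuria) and old C57BL/6 mice (B6-O) were 28 to 36 weeks old. C57BL/6 mice were wild-type and without disease, and CMPs were sequenced from NZB/W F1 mice only. Disease and age cannot be told apart between F1-P and F1-L, and F1-L and B6-O differ in strain and in disease. The labels do not say that samples came from separate mice, so p-values measure the spread between these samples.

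The respiratory chain sits in the inner mitochondrial membrane. Complexes I and II pass electrons from NADH and succinate to ubiquinone, complex III passes them to cytochrome c, complex IV passes them to oxygen, and the proton gradient built on the way drives ATP synthase. Most subunits are nuclear genes and the rest are encoded in mitochondrial DNA. Resting haematopoietic stem cells are known to rely little on oxidative phosphorylation, and committed progenitors more.

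Levels are given as CPM, which here stands for the deposited read counts divided by each library's scaled total, so that the values of a library do not add up to the same sum in each. Libraries held 23772252 to 28493747 reads in LSK and 20001328 to 24761060 in CMPs. Immunoglobulin genes took 16.8 to 36.5% of the reads of NZB/W F1 LSK, 0.301 to 4.76% of C57BL/6 LSK and at most 0.255% of CMPs. Both sorted fractions carried Kit (257 to 657 CPM in LSK, 416.5 to 668 in CMPs). Ly6a, the Sca-1 gene, was at 293 to 879 CPM in NZB/W F1 LSK, at 35.5 to 113 in C57BL/6 LSK and at 1.135 to 6.70 in CMPs. The 2 C57BL/6 libraries numbered 3 stood apart from the rest: they held the highest summed level of the 80 genes among the LSK libraries (7600 CPM in B6-Y and 9517 in B6-O). In the neutrophil markers, B6-O replicate 3 was also the highest C57BL/6 library, with 11 genes summing to 10720 CPM, while B6-Y replicate 3 was the lowest (485) and B6-Y replicate 2 stood at 5441; the other C57BL/6 libraries held 499 to 1736 CPM. Medians and counts that move with these libraries are also given without them.

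The summed level of the 80 genes in CMPs was on average 1.96 times that in LSK of the same strain and overlapped between the disease stages in both cell types. In LSK the sum was 6411, 5396 and 5888 CPM in F1-P and 5232, 5767 and 5875 CPM in F1-L. It was 5500, 4939 and 7600 CPM in B6-Y and 5936, 6629 and 9517 CPM in B6-O. In CMPs it was 12720, 10760 and 9088 CPM in F1-P and 10430, 13090 and 11520 CPM in F1-L. All 6 CMP libraries lay above all 6 NZB/W F1 LSK libraries, while F1-P and F1-L overlapped in both cell types. Since these are bulk samples, fewer cells of a type and less RNA per cell cannot be told apart.

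**Figure D1:**
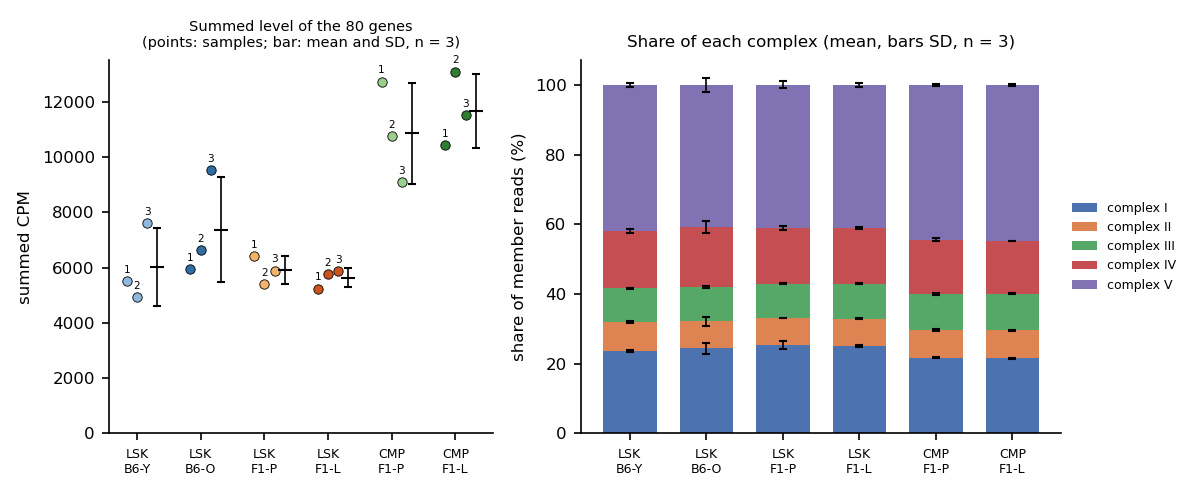
Left, the summed level of the 80 genes in CPM (vertical axis, from 0) in each sample of the 6 groups, with the replicate number above each point and the mean and SD of 3 samples beside them; CMP samples lie between 9088 and 13090 CPM and NZB/W F1 LSK samples between 5232 and 6411. Right, the share of the reads of these genes that each complex took, in % (mean of 3 samples, with SD at the top of each segment); complex V took the largest share in every group.

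The make-up of the chain differed little between groups within a cell type. ATP synthase genes took 41.1% ± 1.00 (SD, n = 3) of the reads of the 80 genes in F1-P LSK, 41.1% ± 0.588 in F1-L LSK, 44.5% ± 0.298 in F1-P CMPs and 44.8% ± 0.365 in F1-L CMPs. Complex I genes took 25.3% ± 1.14 and 25.1% ± 0.336 in F1-P and F1-L LSK and 21.7% ± 0.160 and 21.6% ± 0.196 in F1-P and F1-L CMPs. The share of complex V was thus higher and that of complex I lower in CMPs by more than the spread between samples. Single genes of complex V moved both ways. Atp5b took 12.05% of these reads in NZB/W F1 LSK and 15.8% in CMPs, and Atp5a1 took 10.8 and 11.8%. Atp5d took 2.22 and 1.55%, and Atp5c1 took 2.94 and 2.54%. The higher share was thus not a trait of every ATP synthase gene. In B6-O the shares were more scattered, with complex II between 6.20 and 8.67%.

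Per kilobase of merged exons, the most abundant subunit of each complex in LSK, as the mean over 12 samples, was Ndufb11 (102 CPM per kb) for complex I, Sdhd (71.2) for complex II, Uqcrh (79.97) for complex III, Cox8a (216) for complex IV and Atp5a1 (212) for complex V. Within a complex the levels per kb were far from equal, with a median of 25.5 CPM per kb over the 36 complex I genes and 35.1 over the 17 complex V genes. With the length of the principal transcript in place of merged exons, Atp5b, the catalytic beta subunit, led complex V at 394 CPM per kb and Sdha led complex II at 81.9. Levels per kb therefore depended on the length used.

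Among the isoforms best known from other tissues, Cox4i2 and Cox7a1 were near the floor. Cox4i2, the hypoxia-linked form of subunit IV found mainly in lung, was at 0.0412 to 1.57 CPM in all 18 libraries. Per kilobase of merged exons it reached 0.692 CPM in LSK and 0.256 in CMPs on average, against 106 and 181 CPM per kb for the common form Cox4i1. Cox7a1, the muscle form of subunit VIIa, was at 0.384 to 1.40 CPM. Ndufa4l2, an alternative form of Ndufa4, was in the LSK table only, so it was not a member, and Cox7b2, Cox8b and Cox8c were in neither table. Of the 80 genes, 77 or 78 reached 1 CPM in at least 3 samples of a comparison and were tested. Cox4i2 and Cox7a1 did not, nor did Ndufs5 where only NZB/W F1 samples were compared.

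CMPs held higher levels of nearly the whole chain than LSK of NZB/W F1 mice. The mean log2 level, on the log2(CPM + 1) scale, was higher in CMPs for 75 of 77 genes, with a median difference of 0.79 against 0.01 over all 14526 genes compared. For 65 of the 77 genes every one of the 6 CMP libraries lay above every one of the 6 LSK libraries, which held for 28.4% of all genes, and for none did all CMP libraries lie below, which held for 20.9%. No test was run, because the LSK and CMP tables were normalised separately and cell type and table cannot be told apart. On CPM counted outside immunoglobulin genes, where the median of all genes moved to -0.21, the median of the chain was 0.56, 70 of 77 genes were higher, and the libraries did not overlap for 57 genes higher and 2 lower, against 19.2% and 28.3% of all genes. With one scaling over both tables the median was 0.78, with 62 genes higher and 0 lower without overlap, against 26.9% and 21.6%. Cycling cell markers moved the same way, with a sum of 6 genes at 3291 to 4266 CPM in CMPs and 1137 to 1509 CPM in NZB/W F1 LSK; none of the 6 was at 0. The 7 myeloid progenitor markers summed to 1786 to 5377 CPM in CMPs and 363 to 2240 in NZB/W F1 LSK, and the 9 erythroid markers (8 of them in the CMP table) to 2546 to 4072 and 91.3 to 3019 CPM. The 10 plasma cell markers went the other way, with 69.0 to 319 CPM in CMPs and 9825 to 38150 in NZB/W F1 LSK. The part of these cells in the difference was not tested.

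Every complex had a higher median level in CMPs, with median differences of 0.69 for complex I (35 genes compared), 0.87 for complex II (4), 1.035 for complex III (8), 0.94 for complex IV (13) and 0.89 for complex V (17). The largest difference was that of Cox6b2, an isoform of subunit VIb best known from testis, which was at 8.64 to 19.3 CPM in NZB/W F1 LSK and 52.1 to 103 in CMPs (2.41 on the log2 scale). The ubiquitous form Cox6b1 was higher by 1.21, with means of 63.2 and 148.5 CPM. Among the 3 genes of subunit c, which forms the rotating ring of ATP synthase, Atp5g1 was higher on average by 1.501 (43.9 and 128 CPM), Atp5g3 by 1.16 (147.5 and 334 CPM) and Atp5g2 by 0.71 (22.7 and 37.8 CPM). Atp5g2 shared 86.9% of its read-length windows with other annotated transcripts, so its level is uncertain. Atp5b took 12.05% of the reads of the 80 genes in NZB/W F1 LSK (11.4 to 12.7%) and 15.8% in CMPs (15.0 to 16.4%), a share that does not depend on how a table was scaled.

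**Figure D2:**
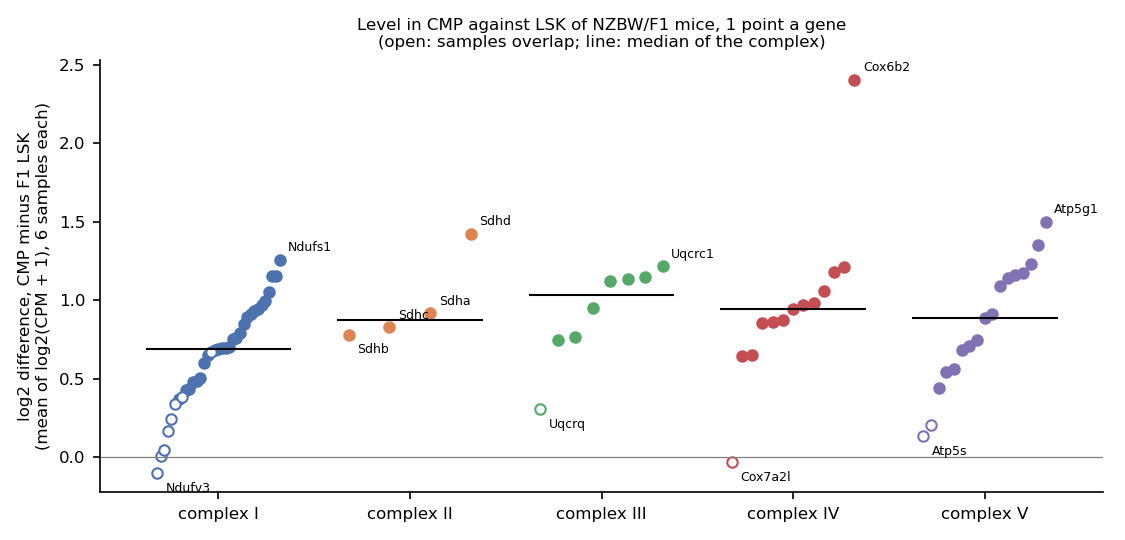
Difference in mean log2(CPM + 1) between the 6 CMP and the 6 NZB/W F1 LSK samples (vertical axis) for 77 genes, 1 point a gene, grouped by complex; open points mark genes whose CMP and LSK samples overlap and lines mark the median of each complex. Cox6b2 lies at 2.41, and the medians lie between 0.69 and 1.035.

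Complex II, succinate dehydrogenase, also belongs to the tricarboxylic acid cycle and is the complex with no mitochondrially encoded subunit. Sdha, the flavoprotein, was at 203 to 232 CPM in NZB/W F1 LSK and 346 to 471 in CMPs. Sdhb, the iron-sulphur subunit, was at 67.5 to 90.9 CPM in NZB/W F1 LSK and 107 to 153 in CMPs. The membrane anchor Sdhc was at 65.1 to 81.7 CPM in NZB/W F1 LSK and 105 to 151 in CMPs. The other anchor, Sdhd, was at 69.3 to 89.6 CPM in NZB/W F1 LSK and 160 to 278 in CMPs, the largest difference of complex II (1.42 on the log2 scale). None of the 4 overlapped between the cell types.

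Promoters of some genes of the chain hold binding motifs of NRF1, the nuclear respiratory factor, or of ETS factors such as GABP, the other nuclear respiratory factor. RefSeq (GRCm38.p6) gave 72 windows, from 250 bases before to 50 bases after a start, for 67 of the 80 genes. The NRF1 motif (GCGCA, then any base, then GCGC), searched like the others on both strands, was in at least one window of 17 of these genes (25.4%), against 5.19% of all 27025 genes with a window. The ETS motif CCGGAAG was in 16 (23.9%) against 9.93%, the YY1 motif AAGATGGC in 10 (14.9%) against 3.19%, and CCAAT in 29 (43.3%) against 41.1%. NRF1 or ETS motifs were in 29 of the 67 genes (43.3%) against 14% of all genes, so most held neither. A match is a description of letters and not a site, and the windows were not matched for base composition. The 250 bases before the start of 4 genes are printed 5′ to 3′ on the gene's strand, with NRF1 and ETS motifs in capitals, to show how the motifs lie. They are Sdha (chr13:74350241-74350490, minus strand) with 3 NRF1 motifs, Sdhd (chr9:50603850-50604099, minus strand) with 1 NRF1 and 1 ETS motif, Cox6a1 (chr5:115348959-115349208, minus strand), which encodes the common form of subunit VIa, with 2 NRF1 and 1 ETS motif, and Ndufs5 (chr4:123718187-123718436, minus strand) with 1 NRF1 motif.
Sdha: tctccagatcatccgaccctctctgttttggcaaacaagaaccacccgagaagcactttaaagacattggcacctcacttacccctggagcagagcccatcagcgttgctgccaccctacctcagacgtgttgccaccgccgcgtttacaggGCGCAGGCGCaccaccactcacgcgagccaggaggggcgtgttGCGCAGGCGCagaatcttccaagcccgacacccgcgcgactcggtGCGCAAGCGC
Sdhd: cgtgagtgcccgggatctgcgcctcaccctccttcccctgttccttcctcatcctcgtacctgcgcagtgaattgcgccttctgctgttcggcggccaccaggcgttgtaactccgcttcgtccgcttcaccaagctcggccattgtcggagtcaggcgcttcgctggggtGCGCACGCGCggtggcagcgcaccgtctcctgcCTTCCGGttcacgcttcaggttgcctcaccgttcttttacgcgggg
Cox6a1: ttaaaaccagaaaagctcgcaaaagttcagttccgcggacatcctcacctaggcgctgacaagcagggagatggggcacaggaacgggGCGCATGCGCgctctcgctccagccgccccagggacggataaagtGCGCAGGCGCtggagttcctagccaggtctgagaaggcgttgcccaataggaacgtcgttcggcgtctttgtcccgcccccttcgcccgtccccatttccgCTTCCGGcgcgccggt
Ndufs5: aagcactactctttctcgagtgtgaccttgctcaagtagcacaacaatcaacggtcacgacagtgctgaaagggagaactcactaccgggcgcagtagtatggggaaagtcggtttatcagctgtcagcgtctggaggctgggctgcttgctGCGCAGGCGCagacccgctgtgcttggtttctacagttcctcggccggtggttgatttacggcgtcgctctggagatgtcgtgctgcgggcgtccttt

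A few genes were at like levels in LSK of NZB/W F1 mice and in CMPs. The 4 named here were chosen after their values were seen, as those with the lowest differences. Ndufv3, a complex I subunit of the NADH-binding module, was at 37.1 to 45.5 CPM in NZB/W F1 LSK and 37.1 to 42 in CMPs (a difference of -0.10). Cox7a2l, a complex IV relative that joins complexes III and IV into supercomplexes, was at 65.0 to 95.4 and 70.0 to 90.4 CPM (-0.03). Ndufa13, also known as Grim19, was at 47.7 to 56.9 and 46.7 to 55.1 CPM (0.01), and Ndufb11 at 75.8 to 97.6 and 84.2 to 97.8 CPM (0.05). In shares of the reads of the 80 genes, Ndufb11 took 1.535% in NZB/W F1 LSK and 0.823% in CMPs, Cox7a2l 1.37 and 0.69%, and the ATP synthase delta subunit Atp5d 2.22 and 1.55%, the 3 shares that were lower in CMPs by the widest margin. Ndufa13 shared 25.6% of its windows with other annotated transcripts.

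Between diseased and pre-diseased mice, no gene of the chain passed the test in either cell type. A call needed an adjusted p of at most 0.05 over all genes tested and a change of more than 1.5-fold, and in LSK 0 of 77 genes and in CMPs 0 of 77 passed, where the test called 0.0279% and 0.00774% of all genes (limma with Benjamini-Hochberg adjustment). edgeR and DESeq2 on the recovered reads also called 0 genes of the chain. The share of all genes that they called was not counted, so these 0 calls say little. At an unadjusted p under 0.05, 1 gene was higher and 2 were lower in F1-L LSK, against 8.58% and 4.19% of all genes, and 1 was higher and 1 lower in F1-L CMPs, against 4.55% and 5.25%.

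In LSK the small differences leaned down. The log2 fold change of F1-L over F1-P was above 0 for 13 and below 0 for 64 of 77 genes (48.2% of all genes were above 0), with a median of -0.08 against -0.01 over all genes, which became 0.16 against 0.22 on CPM with no scaling factor. With F1-L replicate 1 left out the median was -0.04, and with F1-P replicate 1 or 2 left out it was -0.05 or -0.13. Cox6b2 was the gene with the lowest p among those higher in F1-L, at 13.5, 8.64 and 12.3 CPM in F1-P and 15.4, 15.4 and 19.3 in F1-L. The 2 groups did not overlap (log2 fold change 0.52, SE 0.193, adjusted p = 0.329). Atp5j2, subunit f of ATP synthase, was at 74.9, 75.3 and 75.3 CPM in F1-P and 59.8, 61.8 and 62.8 in F1-L, again without overlap (-0.29, SE 0.0805, adjusted p = 0.224). Sdhb was at 90.9, 81.2 and 75.6 CPM in F1-P and 67.5, 69.6 and 73.0 in F1-L (-0.23, SE 0.1, adjusted p = 0.4). The 2 groups did not overlap for Sdhb. The groups failed to overlap for 1 gene higher and 7 lower in F1-L, against 10.4% and 7.29% of all genes. The summed neutrophil markers were higher in F1-L LSK (11 genes, 1983 to 12370 CPM, F1-P 301 to 1281) and the plasma cell markers lower (10 genes, 9825 to 13130 CPM, F1-P 14720 to 38150), with none at 0; their part in these small differences was not tested.

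In CMPs the small differences leaned up, with 69 of 77 genes above 0 (58% of all genes were) and a median of 0.10 against 0.04 over all genes. Atp5s, also called coupling factor B, was at 11.7, 10.4 and 11.4 CPM in F1-P and 16.6, 15.7 and 15.3 in F1-L, without overlap (log2 fold change 0.47, SE 0.124, adjusted p = 0.391). Atp5l, subunit g of ATP synthase, went the other way, at 19.74, 22.6 and 25.7 CPM in F1-P and 19.69, 15.5 and 15.1 in F1-L (-0.42, SE 0.162, adjusted p = 0.489), and shared 76.0% of its windows with other annotated transcripts. Cox6b2 was at 89.6, 67.7 and 52.1 CPM in F1-P and 78.3, 103 and 81.2 in F1-L, which overlap (0.35, SE 0.213, adjusted p = 0.629). Groups did not overlap for 4 genes higher and 1 lower in F1-L, against 9.45% and 6.57% of all genes. Without F1-P replicate 3 the median turned to -0.02, and without F1-P replicate 1 it was 0.21 and 9 genes were higher at an unadjusted p under 0.05, as were 12% of all genes in that fit. The neutrophil markers summed to 315 to 8442 CPM in F1-P CMPs and 64.2 to 431 in F1-L CMPs, and their part was not tested.

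**Figure D3:**
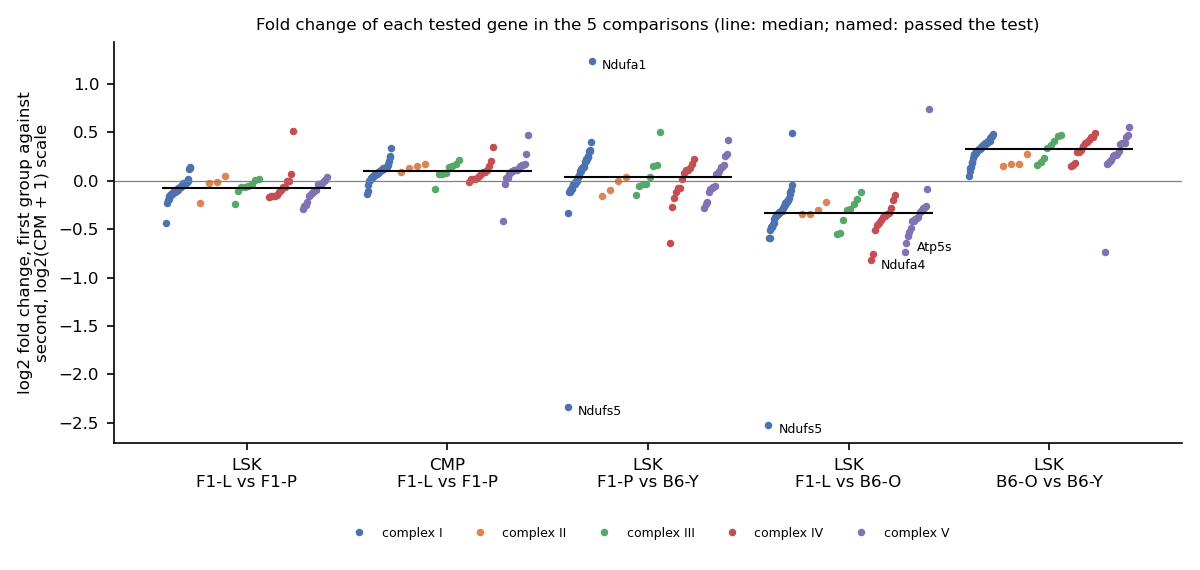
Log2 fold change of each tested gene, first group against second, on the log2(CPM + 1) scale (vertical axis) in the 5 comparisons, coloured by complex, with a line at the median of 77 or 78 genes. Genes that passed the test are named: 2 in F1-P against B6-Y and 3 in F1-L against B6-O; the medians run from -0.34 to 0.33.

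Between strains, few genes of the chain passed the test. In LSK of young mice, F1-P against B6-Y, 2 of 78 genes passed the test (2.56%, against 16.2% of all genes): Ndufs5 was lower and Ndufa1 higher in F1-P. In LSK of older mice, F1-L against B6-O, 3 of 78 passed (3.85%, against 11.6% of all genes): Ndufs5, Ndufa4 and Atp5s were lower in F1-L. Ndufs5 entered both tests only through the C57BL/6 samples, so its calls are no support. The calls left without it were Ndufa1 in young mice and Ndufa4 and Atp5s in older mice. Ndufa1 was called in the young mice whichever library was left out. The summed plasma cell markers also differed by strain in LSK, at 9825 to 38150 CPM in NZB/W F1 and 261 to 2561 in C57BL/6, and their part was not tested. In the older mice Ndufs5 was the one gene called without any single F1-L library, and with a B6-O library left out it no longer reached the filter on low values.

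Ndufs5 encodes an accessory subunit of complex I on the side of the intermembrane space and lies at chr4:123712710-123718202 on the minus strand (GRCm38). It was at 6.48, 5.64 and 9.32 CPM in B6-Y and 5.79, 6.47 and 14.2 in B6-O. In NZB/W F1 LSK it was at 0.495, 1.05 and 0.2915 CPM in F1-P and 0.441, 0.596 and 0.764 in F1-L, and in CMPs at 0.392 to 0.768 CPM. Every NZB/W F1 library lay below every C57BL/6 library. On the log2 scale it was lower in F1-P than in B6-Y, at -2.34 (SE 0.249, adjusted p = 0.000796), and lower in F1-L than in B6-O, at -2.52 (SE 0.323, adjusted p = 0.00339). It passed the filter on low values only through the C57BL/6 samples, so that it had to differ to be tested at all.

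Reads of an annotated copy showed the reverse. BC002163 is a processed pseudogene at chr16:42955631-42955949 whose transcript matches Ndufs5 over 319 bases with 2 differing bases (99.4% identity), both in the coding sequence, and 24.1% of the 75-base windows of Ndufs5 occur in it unchanged. BC002163 was at 0.409 ± 0.127 CPM (SD, n = 3) in B6-Y and 0.3235 ± 0.141 in B6-O, and at 11.6 ± 1.42 in F1-P, 9.32 ± 1.54 in F1-L, 13.3 ± 2.08 in F1-P CMPs and 12.8 ± 1.33 in F1-L CMPs. The difference in BC002163 on the log2 scale was 3.16 in F1-P over B6-Y and 2.96 in F1-L over B6-O; it passed the filter only through NZB/W F1 samples and so had to differ to be tested, and no p is given. With the reads of gene and copy added, the difference in Ndufs5 turned to 0.65 (adjusted p = 0.0735) and 0.19 (adjusted p = 0.734) and was no longer called. Which of the 2 loci gave the reads cannot be told apart from these files. The 75 coding bases of Ndufs5 that hold both differing bases, positions 303 to 377 of its principal transcript, are printed over the matching stretch of BC002163, with the differing bases in capitals.
Ndufs5: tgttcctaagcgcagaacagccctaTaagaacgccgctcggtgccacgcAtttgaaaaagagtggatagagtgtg
BC002163: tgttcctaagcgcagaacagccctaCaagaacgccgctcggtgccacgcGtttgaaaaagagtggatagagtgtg

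Cox7a2l (chr17:83501918-83517330, minus strand) followed the same pattern in part. It was at 110, 98.9 and 157 CPM in B6-Y, 116, 102 and 213 in B6-O, 95.4, 65.0 and 71.4 in F1-P and 66.6, 83.4 and 93.1 in F1-L. The groups did not overlap in either strain comparison, with log2 fold changes of -0.64 (SE 0.212, adjusted p = 0.0769) in F1-P and -0.75 (SE 0.286, adjusted p = 0.141) in F1-L, which did not pass. Without F1-P replicate 1 the difference in young mice was called (-0.80, adjusted p = 0.0444). Its processed pseudogene Gm6969 (chr12:24638669-24639010) is 342 bases long, with 1 differing base in 336 aligned bases and 2 gaps. Gm6969 was at 0.341 ± 0.0373 CPM in B6-Y, 0.44 ± 0.115 in B6-O, 6.98 ± 1.64 in F1-P and 7.08 ± 0.313 in F1-L. The difference in Gm6969 was 2.55 in young and 2.49 in older mice on the log2 scale. Like BC002163, Gm6969 passed the filter only through NZB/W F1 samples. Adding its reads to Cox7a2l left the difference in F1-P at -0.52 (adjusted p = 0.136). The 75 bases around the differing base, positions 314 to 388 of the Cox7a2l principal transcript, are printed with that base in capitals. The gaps lie outside this stretch.
Cox7a2l: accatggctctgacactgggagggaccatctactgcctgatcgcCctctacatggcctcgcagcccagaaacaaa
Gm6969: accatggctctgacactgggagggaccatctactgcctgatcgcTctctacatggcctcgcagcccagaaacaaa

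**Figure D4:**
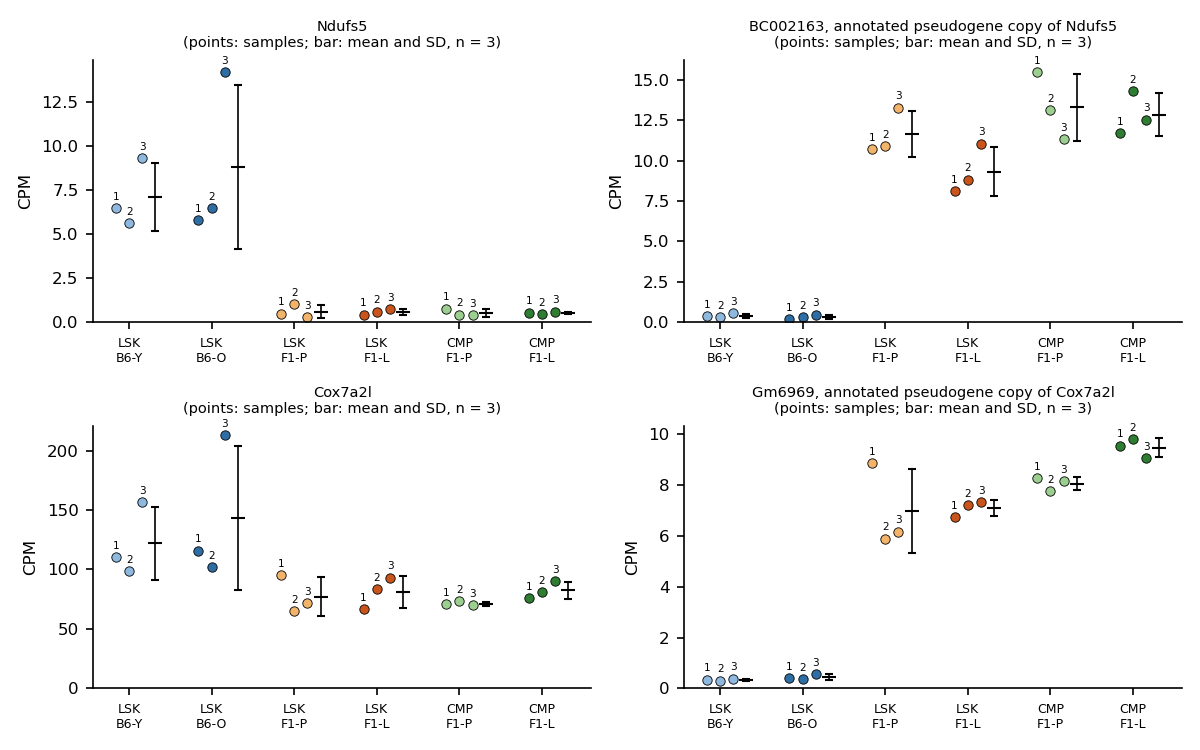
CPM (vertical axes, from 0) of Ndufs5 and Cox7a2l (left) and of their annotated pseudogene copies BC002163 and Gm6969 (right) in each sample of the 6 groups, with the replicate number above each point and the mean and SD of 3 samples beside them. Ndufs5 is at 5.64 CPM or more in C57BL/6 samples and at most 1.05 in NZB/W F1 samples, and both copies show the opposite order.

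Ndufa1, a small subunit needed for assembly of complex I and encoded on the X chromosome (chrX:37187588-37191163, minus strand), shared no window with another annotated transcript. It was at 16.7, 14.6 and 22.8 CPM in B6-Y and 34.9, 50.7 and 45.6 in F1-P, so that all F1-P samples lay above all B6-Y samples (1.24 on the log2 scale, SE 0.21, adjusted p = 0.00613). In older mice it was at 16.7, 18.7 and 34.9 CPM in B6-O and 28.4, 30.0 and 37.7 in F1-L, which overlap (0.50, SE 0.284, adjusted p = 0.301). Without B6-O replicate 3, one of the 2 libraries that stood apart, the latter difference was 0.81 (adjusted p = 0.0184). Within NZB/W F1 LSK, F1-L was lower than F1-P by less than the test could call (-0.43, SE 0.174, adjusted p = 0.363).

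Ndufa4, first assigned to complex I and now known as a subunit of cytochrome c oxidase (chr6:11900292-11907497, minus strand), was at 122, 148 and 189 CPM in B6-O and 82.2, 84.7 and 86.9 in F1-L. The groups did not overlap (log2 fold change -0.82, SE 0.172, adjusted p = 0.0247). It was called without B6-O replicate 1 or 3, and not without B6-O replicate 2 or any single F1-L library (adjusted p = 0.0833 to 0.114). In young mice it was at 96.8, 81.1 and 155 CPM in B6-Y and 102, 78.5 and 106 in F1-P, with overlap (-0.17, SE 0.243, adjusted p = 0.679). Atp5s (chr12:69724950-69744660, plus strand) was at 19.4, 18.4 and 18.2 CPM in B6-O and 12.5, 10.7 and 11.8 in F1-L (-0.64, SE 0.154, adjusted p = 0.0397). These groups did not overlap either, yet of the 6 libraries only B6-O replicate 3 could be left out with the call kept (adjusted p = 0.107 to 0.172 without any other). In young mice the difference was -0.29 (SE 0.181, adjusted p = 0.335).

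**Figure D5:**
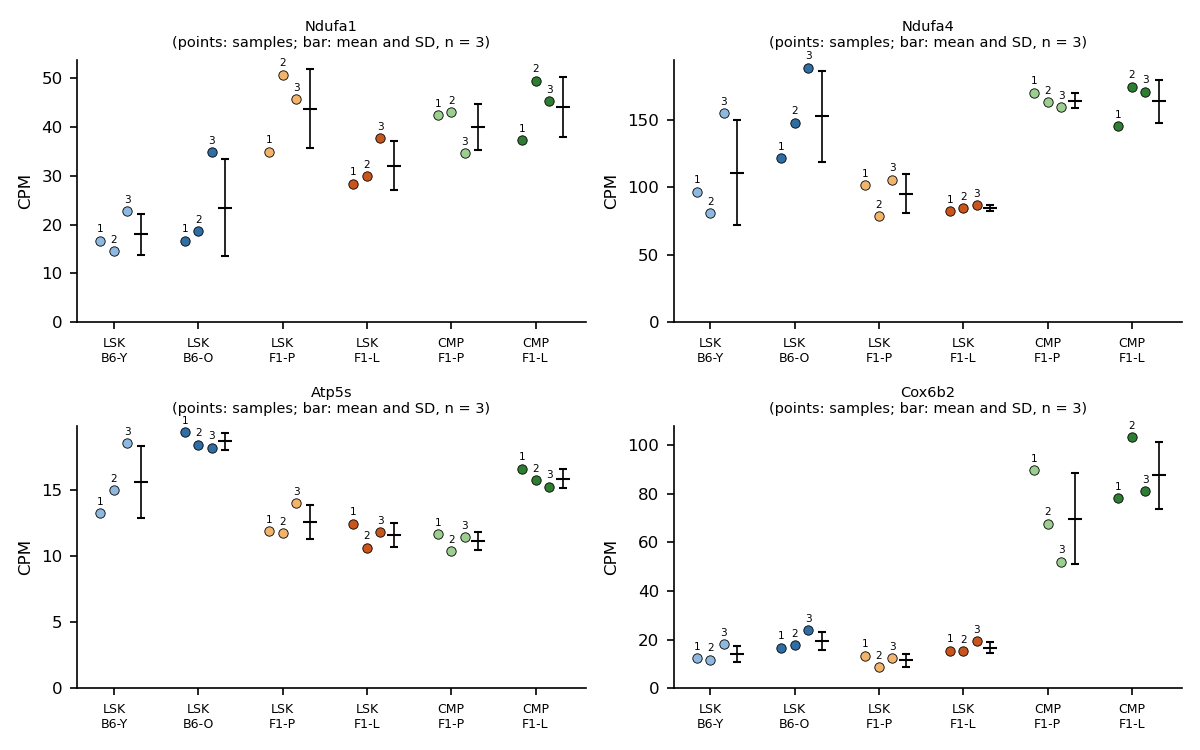
CPM (vertical axes, from 0) of Ndufa1, Ndufa4, Atp5s and Cox6b2 in each sample of the 6 groups, with the replicate number above each point and the mean and SD of 3 samples beside them. Ndufa1 is higher in F1-P than in B6-Y in every sample, Ndufa4 and Atp5s are higher in B6-O than in F1-L in every sample, and Cox6b2 lies at 52.1 CPM or more in CMPs and at most 23.8 in LSK.

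Beyond the called genes, the small differences between strains leaned down in the older mice. In the older mice 76 of 78 genes had a log2 fold change below 0 and 2 above 0 (47.6% of all genes were above), with a median of -0.34 against -0.03 over all genes. On CPM with no scaling factor, which take in the immunoglobulin reads, the median was -0.61 against -0.28 over all genes and 27 genes were called, as were 22.4% of all genes. The medians of the complexes ran from -0.29 (complex III) to -0.39 (complex V). Groups did not overlap for 28 genes lower and 1 higher in F1-L, against 20% and 17.5% of all genes, and 10 were lower at an unadjusted p under 0.05 (12.8%, against 12.7% of all genes). That count was 27 without B6-O replicate 1, where 11.3% of all genes were lower, and 3 to 5 without B6-O replicate 2 or any single F1-L library. Atp5mpl, a small subunit of ATP synthase, was at 42.3, 48.5 and 88.7 CPM in B6-O and 30.1, 35.6 and 35.8 in F1-L (-0.73, SE 0.273, adjusted p = 0.136). Ndufs4, a complex I subunit whose loss causes Leigh syndrome, stood at 43.8 ± 16.01 CPM in B6-O and 27.5 ± 2.54 in F1-L (-0.60, SE 0.248, adjusted p = 0.175). Without B6-O replicate 3 the median was -0.12 against -0.04 over all genes, and 19 of 77 genes were above 0 (46.2% of all genes were). In that fit 3 genes were called (Ndufa4, Atp5s and Ndufa1, since Ndufs5 no longer reached the filter), as were 16.2% of all genes. In the young mice 43 genes were above and 35 below 0 (45.3% of all genes were above), with a median of 0.04 against -0.04 over all genes, which became -0.47 against -0.53 on CPM with no scaling factor, where 14 genes and 46.1% of all genes were called. Without B6-Y replicate 3 that median was 0.22. In that fit 25 genes, in place of 3, were higher in F1-P at an unadjusted p under 0.05, against 18.1% of all genes. It called 4 genes of the chain, and 13.7% of all genes. The 3 higher with all samples were Ndufa1, Uqcrq and Ndufv3. The added calls were Uqcrq, a small subunit of complex III (0.73, adjusted p = 0.0116), and Atp5g1 (0.62, adjusted p = 0.0337).

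Between old and young C57BL/6 LSK no gene of the chain passed the test. The log2 fold change of B6-O over B6-Y was above 0 for 77 of 78 genes (52.9% of all genes were), with a median of 0.33 against 0.02 over all genes. None was called by limma (0% of all genes was) and none reached an unadjusted p under 0.05, which 3.25% of all genes did upwards and 3.37% downwards. Groups did not overlap for 0 genes higher and 1 lower in B6-O, against 5.69% and 5.57% of all genes. edgeR and DESeq2 also gave 0 at both levels, where the share of all genes was not counted. Without B6-O replicate 3 the median was 0.09, with 63 of 78 genes above 0 (53.5% of all genes were). With neither C57BL/6 library numbered 3 the median was 0.27. In that fit 24 genes were higher at an unadjusted p under 0.05, as were 12.9% of all genes. The one gene below 0 was Atp5l, at 13.4, 16.5 and 15.7 CPM in B6-Y and 12.9, 10.5 and 4.65 in B6-O (-0.74, SE 0.338, adjusted p = 0.795).

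The change with age and disease in NZB/W F1 LSK was compared with the change with age in C57BL/6 LSK in one fit over 12 samples. No gene of the chain passed this test, where limma called 0% of all 15084 genes. The difference of the log2 changes, NZB/W F1 minus C57BL/6, was below 0 for 76 of 78 genes, with a median of -0.40 against -0.00058 over all genes, and none reached an unadjusted p under 0.05 in either direction (1.06% of all genes did below 0 and 2.86% above). The lowest p was that of Ndufa4 (-0.65, SE 0.321, adjusted p = 0.977). Without B6-O replicate 3 the median was -0.17, with 73 of 78 genes below 0. Without B6-Y replicate 3 it was -0.60, and 22 genes reached an unadjusted p under 0.05 below 0, as did 4.52% of all genes. With neither library it was -0.36, with 25 such genes against 4.7% of all genes. Without B6-O replicate 1 there were 11 such genes, against 1.82%. No gene passed after adjustment in any of these fits. Each LSK group enters more than one of these comparisons, so their values are not independent.

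The 4 genes of complex II were called in none of the comparisons. Their log2 fold changes ran from -0.23 to 0.04 in F1-L over F1-P LSK, from 0.09 to 0.17 in F1-L over F1-P CMPs, from -0.16 to 0.04 in F1-P over B6-Y, from -0.35 to -0.22 in F1-L over B6-O and from 0.15 to 0.27 in B6-O over B6-Y. Sdha, the most abundant per kb of principal transcript, was at 233, 204 and 297.5 CPM in B6-Y and at 255, 297 and 269 in B6-O. The range of Sdha over the 6 NZB/W F1 LSK libraries (203 to 232 CPM) was narrower than over the 6 C57BL/6 libraries.

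Other genes of mitochondrial respiration were counted from fixed lists. Mitochondrial ribosomal proteins (77 tested in LSK) leaned as the chain did, with 75 of 77 lower in F1-L than in B6-O (47.6% of all genes were above 0), a median of -0.33, and 14 lower and 0 higher at an unadjusted p under 0.05, against 12.7% and 14.8% of all genes. Of the same 77, 76 were higher in B6-O than in B6-Y (52.9% of all genes were), with a median of 0.28. Without B6-O replicate 3, 17 of the 77 were above 0 in F1-L over B6-O (46.2% of all genes were) and the median was -0.19. In B6-O over B6-Y 63 were then higher (53.5% of all genes were), with a median of 0.11. With all samples 1 of the 77 was called: Mrpl57 was higher in F1-P than in B6-Y (0.78, SE 0.215, adjusted p = 0.0429). The 7 mitochondrially encoded subunits in the tables gave 0 calls, with medians of -0.21 in F1-L over F1-P LSK, -0.25 in CMPs and 0.16 in F1-P over B6-Y, against -0.01, 0.04 and -0.04 over all genes. The 13 genes of the tricarboxylic acid cycle and the 16 genes of cytochrome c1, cytochrome c and electron carriers gave 0 calls in all 5 comparisons. Beside the calls of all these lists, the test called 16.2% of all genes in F1-P against B6-Y and 11.6% in F1-L against B6-O. Between disease stages or ages it called at most 0.0279%, so that 0 calls there say little.

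Of 39 assembly factors tested, 2 were called in each strain comparison, where 16.2% of all genes were called in young and 11.6% in older mice, and none between disease stages. Lyrm7, a factor for the iron-sulphur subunit of complex III, was at 2.37 ± 0.907 CPM in B6-Y and 12.99 ± 0.87 in F1-P (2.09 on the log2 scale, SE 0.233, adjusted p = 0.000986), and at 3.135 ± 0.215 in B6-O and 13.35 ± 0.903 in F1-L (1.795, SE 0.169, adjusted p = 0.000959). Ttc19, also a complex III factor, was higher in F1-P than in B6-Y (0.79, SE 0.188, adjusted p = 0.0257), and Tmem70, an ATP synthase factor, was lower in F1-L than in B6-O (-0.62, SE 0.13, adjusted p = 0.02505). Among 15 regulators, Ppargc1a, the coactivator PGC-1 alpha of mitochondrial biogenesis, was the one called: it was at 2.85 ± 0.441 CPM in B6-Y and 0.82 ± 0.476 in F1-P (-1.105, SE 0.222, adjusted p = 0.0126), and at 2.71 ± 1.05 in B6-O and 0.414 ± 0.0203 in F1-L (-1.35, SE 0.244, adjusted p = 0.0141). Ppargc1a reached the filter on low values only through the C57BL/6 samples, so that, like Ndufs5, it had to differ to be tested.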

How the data were processed

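LSK and CMPs were sorted from bone marrow of female mice, and RNA was sequenced from a library kit that does not mark strand (single-end, 75 bases). The authors used STAR 2.6 for alignment to mm10 and HTSeq for counts per gene, and normalised LSK and CMPs apart with edgeR. The annotation release is not given in the sources used here. The deposited values are a signal per gene, read counts divided by each library's scaled total (the text calls them CPM). They gave back whole reads for 100.0% of values (tolerance 0.01 reads). The test planned for unscaled CPM was kept.

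From these values, log2(CPM + 1) was tested with limma 3.58.1 (limma-trend, R 4.3.3) between the 2 groups of each comparison, over genes with at least 1 CPM in at least 3 samples, with Benjamini-Hochberg adjustment over all genes tested. A call needed an adjusted p of at most 0.05 and more than 1.5-fold change. The difference between strains in the change with age was an interaction term over the 12 LSK samples. edgeR 4.0.16 and DESeq2 1.42.0 on the recovered reads were alternatives. The tests were checked on simulated data with independent genes and larger changes than most reported here. That check does not cover small shifts shared by many genes or by a whole library.

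Named genes were those called, the 4 with the lowest p in each direction, the largest change in each complex, complex II, the most abundant per kb, isoforms, and the 3 largest differences in share of reads in each direction; others are said to be chosen after their values were seen. The members and lists were chosen with earlier results of these data known. Read sharing was counted as 75-base windows of a gene's principal transcript (GENCODE M21, GRCm38) found unchanged in transcripts of other genes, and pseudogene copies were aligned to the same transcripts. Promoter windows came from RefSeq (GRCm38.p6). Replicates differed by more than sampling noise in every group. No column was left unmapped.

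The authors gave the LSK gate as lineage-negative, CD16/32-, Sca-1+ and c-Kit+, and the CMP gate as CD34+, CD16/32- and c-Kit+. The CMP gate is written with Sca-1+, while Ly6a was low in the CMP libraries. Each CMP replicate may hold several pooled mice.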

Additional observations from a re-analysis of the deposited data

How the results depend on the processing

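The 61 values given for single genes kept their direction and their side of the threshold in 1030 of 1088 alternatives, lost the call in 10, gained it in 15 and changed sign in 33; causes were not tested except where the construction shows them. The largest shifts came from CPM with no scaling factor, where immunoglobulin reads stay in the total. In F1-L against F1-P LSK 0 genes were then lower at an unadjusted p under 0.05 (1.57% of all genes were) and the median was 0.16. In CMPs 2 were then higher and 0 lower, against 5.25% and 4.65% of all genes. In F1-P against B6-Y 14 of 78 were called, 1 was higher and 33 lower, against 46.1%, 8.17% and 53.3% of all genes, and the median was -0.47. In F1-L against B6-O 27 of 78 were called and 61 were lower, against 22.4% and 32.3% of all genes. Signs also turned there for Sdhb (0.01042), Ndufa2 (0.01012), Sdha (0.23) and Sdhc (0.22) in F1-L against F1-P LSK, and for Uqcrq (-0.01226), Ndufv3 (-0.11), Atp5g1 (-0.08991) and Sdhb (-0.48) in F1-P against B6-Y. No other scaling moved the median of all genes by over 0.1.

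Other settings moved counts at an unadjusted p under 0.05 as follows. One fit over all 12 LSK samples gave 0 genes lower in F1-L against F1-P, 1 higher in F1-P against B6-Y, 1 higher in F1-L against B6-O, and 1 higher and 1 lower in B6-O against B6-Y. The edgeR likelihood ratio gave 0 lower in CMPs, and the edgeR quasi-likelihood test 20 lower in F1-L against B6-O. The share of all genes was not counted in the fit over all 12 samples or in these edgeR fits. Nor was it counted for the mean CPM of at least 5 or the added copies, given next. Their counts, the 20 included, cannot be read as a trait of the chain. A mean CPM of at least 5, which removes Ndufs5, left 1 called and 1 lower in F1-P against B6-Y. Adding the reads of annotated copies, an alternative chosen after seeing the data, gave 0 lower in CMPs, 1 called and 1 lower in F1-P against B6-Y and 1 lower in B6-O against B6-Y, with Ndufs5 turned to 0.65 in young and 0.19 in older mice. Leaving out both C57BL/6 libraries numbered 3, also chosen after seeing the data, gave 24 higher in B6-O against B6-Y, as were 12.9% of all genes. Sdhc in F1-P against B6-Y was near 0 and turned under median of ratios (0.02357), TMM without immunoglobulin genes (0.02351), edgeR quasi-likelihood (0.0003895), edgeR likelihood ratio (0.000479) and DESeq2 (0.01454). Cox7a2l was called in F1-P against B6-Y by DESeq2 (adjusted p = 0.0318), and Atp5mpl in F1-L against B6-O by the edgeR likelihood ratio (adjusted p = 0.0419).

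With 1 library left out at a time, F1-L against F1-P LSK had 0 to 1 genes higher and 1 to 4 lower. Of all genes 5.35 to 8.73% were higher there and 2.04 to 8.1% lower. CMPs had 1 to 9 higher and 0 to 1 lower, against 1.83 to 12% and 1.99 to 13.5% of all genes. F1-P against B6-Y had 2 to 4 called, 1 to 25 higher and 1 to 3 lower. Of all genes 6.69 to 16% were called there, 10.1 to 18.1% higher and 9.8 to 16.6% lower. F1-L against B6-O had 0 to 3 called, 0 to 1 higher and 3 to 27 lower. Of all genes 3.23 to 16.2% were called there, 10.3 to 19.2% higher and 8.51 to 17.1% lower. B6-O against B6-Y had 0 to 5 higher and 0 to 1 lower, against 1.72 to 6.87% and 1.65 to 6.35%. The median difference of the interaction, an alternative chosen after seeing the data like the ribosomal protein values without 1 library, ran from -0.596 to -0.1673. The sign of single genes turned in F1-L against F1-P LSK for Sdhd (-0.06668 to 0.1072), Sdha (-0.05961 to 0.03604) and Sdhc (-0.113 to 0.05315), in CMPs for Uqcrq (-0.23 to 0.008898), Sdhd (-0.02044 to 0.3775) and Sdhb (-0.03707 to 0.2179), in F1-P against B6-Y for Sdhd (-0.1825 to 0.04446), Sdhb (-0.07432 to 0.2055) and Sdhc (-0.13 to 0.16), and in B6-O against B6-Y for Sdhb (-0.03159 to 0.321).

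Groups share replicate numbers, and nothing in the labels ties same-numbered samples to one mouse. The correlation of the deviations of such samples from their group means ran from -0.454 to 0.622 and passed 0.1 for every pair in no comparison. Single pairs did deviate together. For replicates 1, 2 and 3 the values were 0.472, -0.356 and 0.316 in B6-O against B6-Y. They were 0.326, 0.322 and 0.0676 in F1-P against B6-Y, and -0.454, -0.323 and 0.622 in CMPs. Whether same-numbered samples belong together cannot be decided from these values. In no comparison did every sample correlate best with its own number. With the replicate number as a block, 0 genes were called in both F1-L against F1-P comparisons, 2 in F1-P against B6-Y, 2 in F1-L against B6-O, where Atp5s was no longer called (adjusted p = 0.103), and 0 in B6-O against B6-Y. At an unadjusted p under 0.05 the block gave 0 lower in CMPs, 1 higher in F1-L against B6-O and 32 higher in B6-O against B6-Y. The share of all genes under the block was not counted, so its calls and counts, the 32 included, cannot be read as a trait of the chain.

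Depth limits the levels of Ndufs5, Cox4i2, Cox7a1 and the pseudogene copies. There were 3 samples a group.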
